A study of Homo sapiens with 21 samples.

Results

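The lysosome genes described here are 43 protein-coding genes chosen by symbol, out of 28008 genes in the count tables. All 43 were found in both tables. By role they comprise 9 membrane proteins, 9 proteases, 10 glycosidases, 3 sulfatases, 3 enzymes that act on phosphate or thioester bonds, 3 activator proteins including granulin, 4 proton pump genes and 2 MiT transcription factors. Their mRNA was counted in 21 libraries from leukaemia cell lines, and the comparison at the centre is that of the libraries labelled resistant 2 with those labelled resistant 1.

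The lysosome is the acidic compartment in which cells break down proteins, glycans and lipids. A vacuolar proton pump acidifies it, heavily glycosylated proteins such as LAMP1 and LAMP2 line its membrane, and its hydrolases are delivered there from the Golgi apparatus or taken up from outside. The MiT family of transcription factors, among them TFEB and TFE3, binds an E-box in the promoters of many lysosomal genes. This E-box is known as the CLEAR element, and TFEB and TFE3 enter the nucleus when the nutrient sensor mTORC1 releases them. In myeloid cells lysosomal hydrolases are abundant, because monocytes and macrophages digest what they engulf.

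The labels place the libraries in 7 groups of 3. Batch 1 held untreated OCI-AML3 cells of genotype WT (parental), OCI-AML3 cells of genotype WT with DMSO (vehicle), OCI-AML3 cells of genotype Res with StAMP (BioRep1, called resistant 1 here) and untreated K562 cells of genotype WT. Batch 2 held vehicle, resistant 1 and resistant 2 (BioRep2, likewise genotype Res with StAMP). Batch is a sequencing batch in the labels. OCI-AML3 is an acute myeloid leukaemia line, K562 an erythroleukaemia line from a chronic myeloid leukaemia, and StAMP is not spelled out in the labels, although stapled peptides appear in the series title. Growth, selection and treatment, and whether a resistant population is 1 clone, are not stated in the sources used here. No label makes the 3 libraries of a group separate cultures, so each p-value reflects only the spread among these libraries, which may be technical.

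The libraries labelled resistant went against their OCI-AML3 label. Over 10784 genes, resistant 1 of batch 1 correlated at 0.978 to 0.980 with K562 and at 0.507 to 0.510 with vehicle (Pearson, on a log2 scale of library-scaled counts, a description over libraries). Those of batch 2 correlated at 0.901 to 0.940 with K562 and at 0.553 to 0.576 with their own vehicle. MTAP, which lies in a block of chromosome 9 that K562 is known to have lost, had 0 counts in all libraries labelled resistant and in K562, and 1600 to 9296 counts in the parental and vehicle libraries. A difference between libraries labelled resistant and vehicle therefore cannot be told apart from a difference between cell lines. The comparison of resistant 2 with resistant 1 sets 2 such groups of the same batch against each other. Total counts ran from 14066821 to 21091646 per library in batch 1 and from 30719771 to 51262668 in batch 2. These are bulk samples, in which fewer cells of a type and less RNA per cell cannot be told apart.

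Promoter sequence was available for 33 of the 43 genes in RefSeq (GRCh38.p14), as 250 bases before to 50 after each start site. The core of the CLEAR element, CACGTG, and its longer form, TCACGTGA, which contains it, were searched on both strands, on which each reads the same. CACGTG lay in a promoter of 11 of the 33 genes (33.3%) against 8.78% of all 27305 genes with a promoter there. Counted by promoter, it lay in 24.5% of the 49 promoters of the members and in 7.26% of all 35116. TCACGTGA lay in 6 of the 33 genes (18.2%) against 1.18% of all genes. Of 83 other genes of the lysosomal pathway with a promoter there, 30.1% held CACGTG and 14.5% TCACGTGA. A match is a description of the letters and says nothing of binding. Stretches that end at the base before the start site are shown for 6 members that hold CACGTG, given in capitals, and below them for the 2 members with the greatest called falls from resistant 1 to resistant 2, whose RefSeq promoters held none.
LAMP1: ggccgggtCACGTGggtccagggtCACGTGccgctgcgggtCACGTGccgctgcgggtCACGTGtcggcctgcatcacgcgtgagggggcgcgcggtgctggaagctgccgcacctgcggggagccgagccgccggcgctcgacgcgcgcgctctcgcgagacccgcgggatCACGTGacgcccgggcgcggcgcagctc
MCOLN1: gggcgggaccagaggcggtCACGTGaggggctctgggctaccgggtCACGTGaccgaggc
GAA: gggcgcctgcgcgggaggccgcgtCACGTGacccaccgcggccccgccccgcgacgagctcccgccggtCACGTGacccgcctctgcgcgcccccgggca
CTSA: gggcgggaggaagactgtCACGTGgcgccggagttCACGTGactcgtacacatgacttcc
ATP6V0D1: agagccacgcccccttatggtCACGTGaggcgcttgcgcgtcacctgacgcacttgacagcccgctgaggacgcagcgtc
CTSD: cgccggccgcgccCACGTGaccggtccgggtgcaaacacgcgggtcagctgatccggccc
LAPTM5: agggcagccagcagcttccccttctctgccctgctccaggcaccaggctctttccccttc
GM2A: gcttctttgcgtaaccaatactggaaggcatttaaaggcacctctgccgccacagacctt
The stretch of LAMP1 is chr13:113297039-113297238 on the plus strand and holds 5 copies of the core. On the plus strand are also MCOLN1 (chr19:7522564-7522623), GAA (chr17:80101481-80101580) and CTSA (chr20:45891275-45891334), with 2 copies each, and GM2A (chr5:151253125-151253184). On the minus strand are ATP6V0D1 (chr16:67481158-67481237) and CTSD (chr11:1763928-1763987), with 1 copy each, and LAPTM5 (chr1:30757775-30757834). All are upstream of the first exon of the RefSeq transcript they belong to. The other members with the core were ARSB, NEU1, CD63, CLN3 and ACP5.

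Resistant 2 held less mRNA of many lysosome genes than resistant 1. Of the 43 members, all of them tested, 17 were lower in resistant 2 (39.5%) and 2 were higher (4.65%) at an adjusted p under 0.05, against 11.9% of all 15218 genes tested lower and 12.4% higher. The median log2 fold change of the members was -0.32 and that of all genes 0, and 34 of 43 members lay below 0. The members together took 0.462 to 0.528% of all counts in resistant 1 and 0.332 to 0.354% in resistant 2. PSAP and LAPTM5 carried most of that fall: they summed to a mean of 1524 CPM (counts scaled to the library size) in resistant 1 and 507 CPM in resistant 2, and the 41 other members to 3045 to 3638 CPM and 2614 to 2738 CPM. By size, 4 members (9.30%) differed by at least 1 on the log2 scale, counting ACP5, which was not called, against 13.7% of all genes. The median size of the difference was 0.36 for the members and 0.30 for all genes. The 17 lower calls came to 12 without resistant 1 replicate 3, 13 without resistant 2 replicate 1 and 21 without resistant 1 replicate 2. With the replicate number as a block they came to 19, and the higher calls to 3. By library totals in place of TMM scaling, 16 members were lower and 3 higher, and the calls over all genes moved from 1890 higher and 1816 lower to 2611 and 1398.

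**Figure D1:**
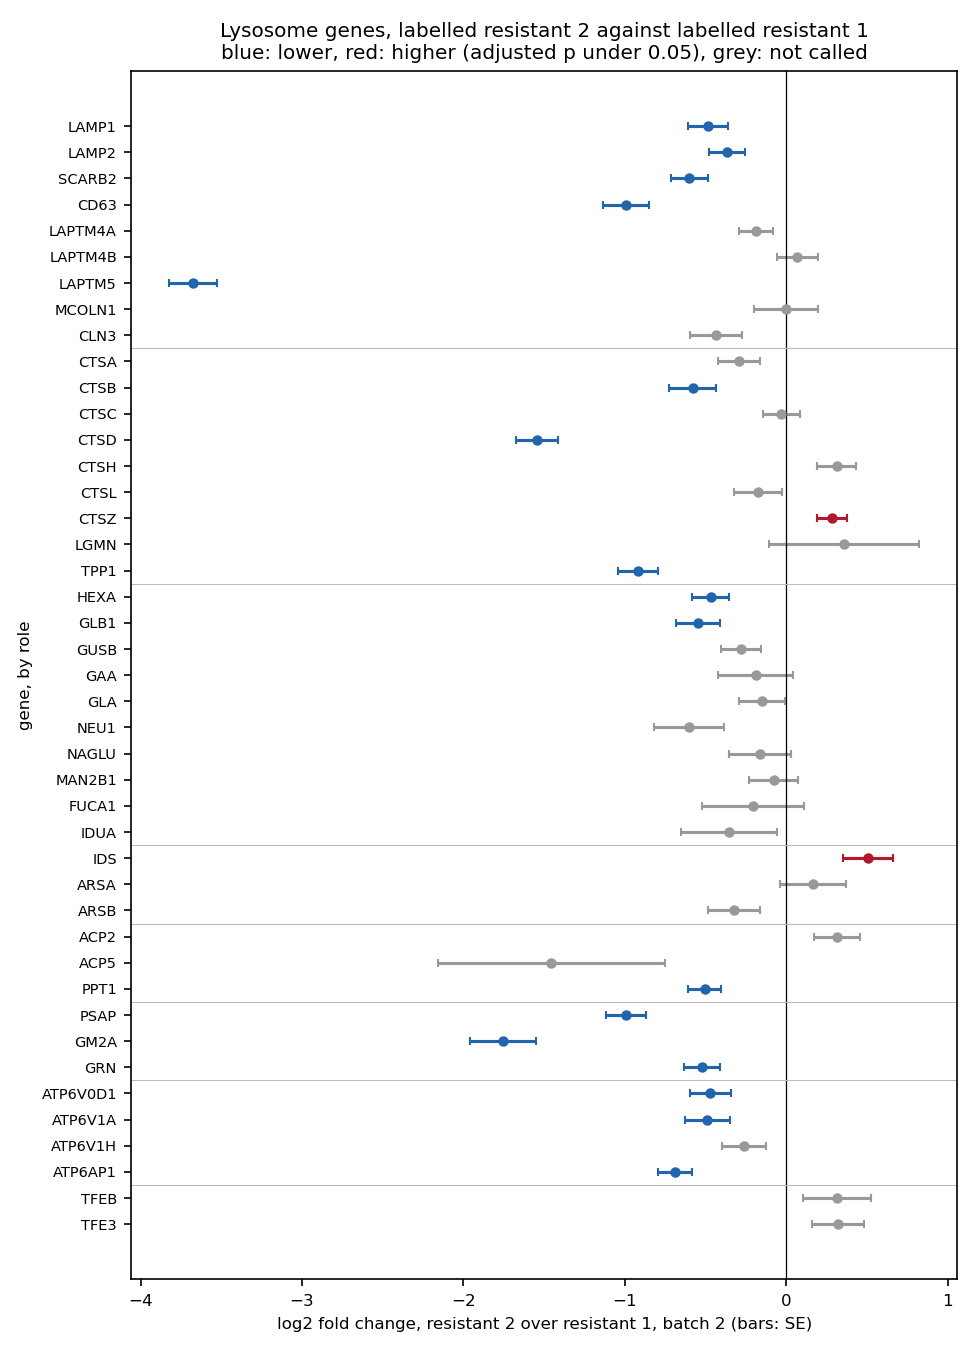
Log2 fold change of each of the 43 lysosome genes in resistant 2 over resistant 1, batch 2 (x axis; points are edgeR estimates, bars their standard errors, 3 libraries a group), with the genes in blocks by role on the y axis. The 17 blue points lie left of 0, the 2 red points right of it, and LAPTM5 stands furthest from 0 at -3.68.

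Among the membrane proteins, 5 of 9 were lower and 0 higher, against 11.9% and 12.4% of all genes tested. LAPTM5, a transmembrane protein of lysosomes in blood cells that is known to lower surface antigen receptors, had the greatest fall. It was at 552, 627 and 643 CPM in resistant 1 (replicates 1 to 3, in CPM, the count scaled to the TMM library size) and at 38.2, 56.4 and 47.9 CPM in resistant 2. All resistant 2 libraries lay far below all resistant 1 libraries, 12.8-fold on average, at -3.68 ± 0.15 (SE, adjusted p = 3.05e-09) on the log2 scale. Differences are given below on that scale, as resistant 2 over resistant 1. CD63, a tetraspanin of late endosomes and exosomes, was at 232, 167 and 247 CPM in resistant 1 and 95.02, 116 and 114 CPM in resistant 2. Its groups did not overlap, although replicate 2 of resistant 1 was the lowest there, and it was lower, at -0.99 ± 0.14 (SE, adjusted p = 2.10e-04). LAMP1, the main glycoprotein of the lysosomal membrane, stood at 46.3, 58.9 and 52.4 CPM in resistant 1 and 33.1, 43.7 and 35.9 CPM in resistant 2. LAMP2, whose isoforms serve autophagy, stood at 294, 236 and 304 CPM and 225, 211 and 209.9 CPM.

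For LAMP1 and LAMP2 each resistant 2 library was below each resistant 1 library, and the log2 fold changes were -0.48 ± 0.12 (SE, adjusted p = 0.0116) and -0.37 ± 0.11 (SE, adjusted p = 0.0275). The call for LAMP1 ended without resistant 2 replicate 1 and that for LAMP2 without any of 4 single libraries, with adjusted p up to 0.0636 and 0.125, and LAMP2 was at an adjusted p of 0.0720 by library totals. SCARB2, the receptor that carries glucocerebrosidase to the lysosome, was also lower, at -0.60 ± 0.12 (SE, adjusted p = 0.00217). MCOLN1, the calcium channel of the lysosomal membrane, was at 4.29, 5.37 and 3.98 CPM in resistant 1 and 3.78, 4.63 and 5.20 CPM in resistant 2, and these overlapped. Its log2 fold change was 0.00 ± 0.20 (SE, adjusted p = 1.000). LAPTM4A, LAPTM4B and CLN3 were not called, at -0.19, 0.07 and -0.43, although DESeq2 called CLN3 lower (adjusted p = 0.0427). Exons of MCOLN1 overlap those of PNPLA6 on the same strand, and reads there could have been split.

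Of the 9 proteases, 3 were lower and 1 higher, against 11.9% and 12.4% of all genes tested. CTSD, the aspartic protease cathepsin D, was at 83.1, 65.4 and 78.6 CPM in resistant 1 and 26.2, 25.6 and 26.01 CPM in resistant 2. The resistant 2 libraries were close to each other and all below resistant 1, 2.92-fold on average, at -1.55 ± 0.13 (SE, adjusted p = 1.83e-06). TPP1, a peptidase that removes tripeptides and is mutated in a neuronal ceroid lipofuscinosis, was at 183, 135 and 171 CPM and 92.2, 79.5 and 87.5 CPM. These did not overlap either, and the difference was -0.92 ± 0.13 (SE, adjusted p = 1.51e-04). CTSB, a cysteine cathepsin, was lower, at -0.58 ± 0.15 (SE, adjusted p = 0.0106), a call that ended without resistant 1 replicate 1 or replicate 3 (adjusted p up to 0.0611).

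CTSZ, a carboxypeptidase, was the higher one, at 80.6, 86.4 and 79.7 CPM in resistant 1 and 104, 96.4 and 100.1 CPM in resistant 2. The groups were just apart, and the difference of 0.28 ± 0.10 (SE, adjusted p = 0.0437) was lost without any of 7 of the 9 libraries of the fit, with no low-count filter (adjusted p = 0.0799) and in a fit of the 6 compared libraries (0.0904). CTSH, an aminopeptidase, was at 0.31 ± 0.12 (SE, adjusted p = 0.0724), and with the replicate block it was called higher (adjusted p = 0.0488). CTSA, which protects 2 glycosidases from breakdown, CTSC, which activates granule proteases, and CTSL were at -0.29, -0.03 and -0.17, and none of them was called. LGMN, the asparaginyl protease legumain, stayed under 1 CPM in every library of the series. CTSZ and CTSA overlap genes on the opposite strand (NELFCD, and NEURL2 and PLTP).

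Of 10 glycosidases 2 were lower and 0 higher, against 11.9% and 12.4% of all genes tested. All 10 log2 fold changes lay below 0. HEXA, the alpha subunit of hexosaminidase, was lower, at -0.47 ± 0.12 (SE, adjusted p = 0.00922). GLB1, the lysosomal beta-galactosidase, was lower, at -0.55 ± 0.13 (SE, adjusted p = 0.00924), a call that ended without resistant 1 replicate 3 (adjusted p = 0.0593). Exons of GLB1 overlap those of TMPPE on the same strand. NEU1, the sialidase, was at 156, 87.2 and 166 CPM in resistant 1 and 109, 67.9 and 93.1 CPM in resistant 2, with replicate 2 the lowest in each group. The groups overlapped and the log2 fold change was -0.60 ± 0.22 (SE, adjusted p = 0.0600). NEU1 was called lower with the replicate block (adjusted p = 0.00820) and by DESeq2 (0.0309). The 7 others (GUSB, GAA, GLA, NAGLU, MAN2B1, FUCA1 and IDUA) ranged from -0.36 to -0.08.

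IDS, the sulfatase that trims heparan and dermatan sulfate, was the second higher member. It was at 48.1, 40.96 and 42.4 CPM in resistant 1 and 69.5, 46.7 and 70.9 CPM in resistant 2, where replicate 2 lay among the resistant 1 values. The difference of 0.51 ± 0.16 (SE, adjusted p = 0.0284) was lost without any of 4 single libraries. ARSA and ARSB, the arylsulfatases, were not called (0.16 and -0.32). PPT1, the thioesterase that removes palmitate from proteins, was lower, at -0.50 ± 0.10 (SE, adjusted p = 0.00292). The acid phosphatase genes ACP2 and ACP5 were not called. ACP5, the tartrate-resistant phosphatase of osteoclasts and macrophages, was at 4.23, 0.799 and 5.48 CPM in resistant 1 and 1.58, 0.404 and 1.81 CPM in resistant 2, with replicate 2 the lowest in each. Its log2 fold change was -1.45 ± 0.70 (SE, adjusted p = 0.171), and with the replicate block it was called lower (adjusted p = 0.00307).

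All 3 activator genes were lower in resistant 2, against 11.9% of all genes tested. GM2A encodes the activator that lifts GM2 ganglioside out of the membrane for hexosaminidase. It was at 138, 79.1 and 167 CPM in resistant 1 and 35.5, 41.7 and 36.8 CPM in resistant 2. Resistant 1 spread widely, with replicate 2 lowest, and still lay above every resistant 2 library, 3.37-fold on average, at -1.75 ± 0.20 (SE, adjusted p = 5.22e-05). PSAP, the precursor of the 4 saposins that present sphingolipids to their hydrolases, was at 984, 765 and 1002 CPM in resistant 1 and 487, 417 and 475 CPM in resistant 2. It was 1.99-fold lower (adjusted p = 6.32e-05), with no overlap. GRN, the precursor of the granulins and a partner of PSAP in transport, was lower, at -0.53 ± 0.11 (SE, adjusted p = 0.00391).

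Of the 4 proton pump genes 3 were lower, against 11.9% of all genes tested. ATP6AP1, an accessory subunit needed to assemble the pump, was lower, at -0.69 ± 0.10 (SE, adjusted p = 3.02e-04). ATP6V0D1, a membrane-sector subunit, and ATP6V1A, the ATP-hydrolysing subunit, were lower, at -0.47 ± 0.12 (SE, adjusted p = 0.0140) and -0.49 ± 0.14 (SE, adjusted p = 0.0202). Both calls ended without single libraries: ATP6V0D1 without resistant 1 replicate 3 or resistant 2 replicate 1 (adjusted p up to 0.0727), ATP6V1A without replicate 1 or 3 of either group (up to 0.0963). ATP6V1H, a regulatory subunit, was at -0.26 and not called.

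Neither MiT factor was called. TFEB was at 4.33, 3.22 and 3.39 CPM in resistant 1 and 4.52, 3.60 and 5.52 CPM in resistant 2. TFE3 was at 63.2, 46.3 and 60.7 CPM and 64.2, 57.5 and 90.5 CPM. Both overlapped between the groups, with log2 fold changes of 0.31 ± 0.21 (SE, adjusted p = 0.300) for TFEB and 0.32 ± 0.16 (SE, adjusted p = 0.171) for TFE3. The mRNA level does not show where in the cell these factors were. Of the 11 members with CACGTG in a promoter, 4 were lower and 0 higher. Of the 22 members with a promoter without it, 8 were lower and 2 higher. Here lower calls were as frequent with the core as without it, members lacking promoter sequence left out. Over all genes tested the shares were 11.9% lower and 12.4% higher, and these were not split by motif. In vehicle against parental 7 of 11 members with the core and 4 of 22 without it were lower. In resistant 1 and in resistant 2 against vehicle of batch 2, these counts were 7 and 8, and in resistant 1 against K562 7 and 7. In resistant 1 against vehicle of batch 1 and in K562 against parental they were 6 and 12. The shares over all genes stand with those comparisons below, and a link of the core to the calls was not tested.

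**Figure D2:**
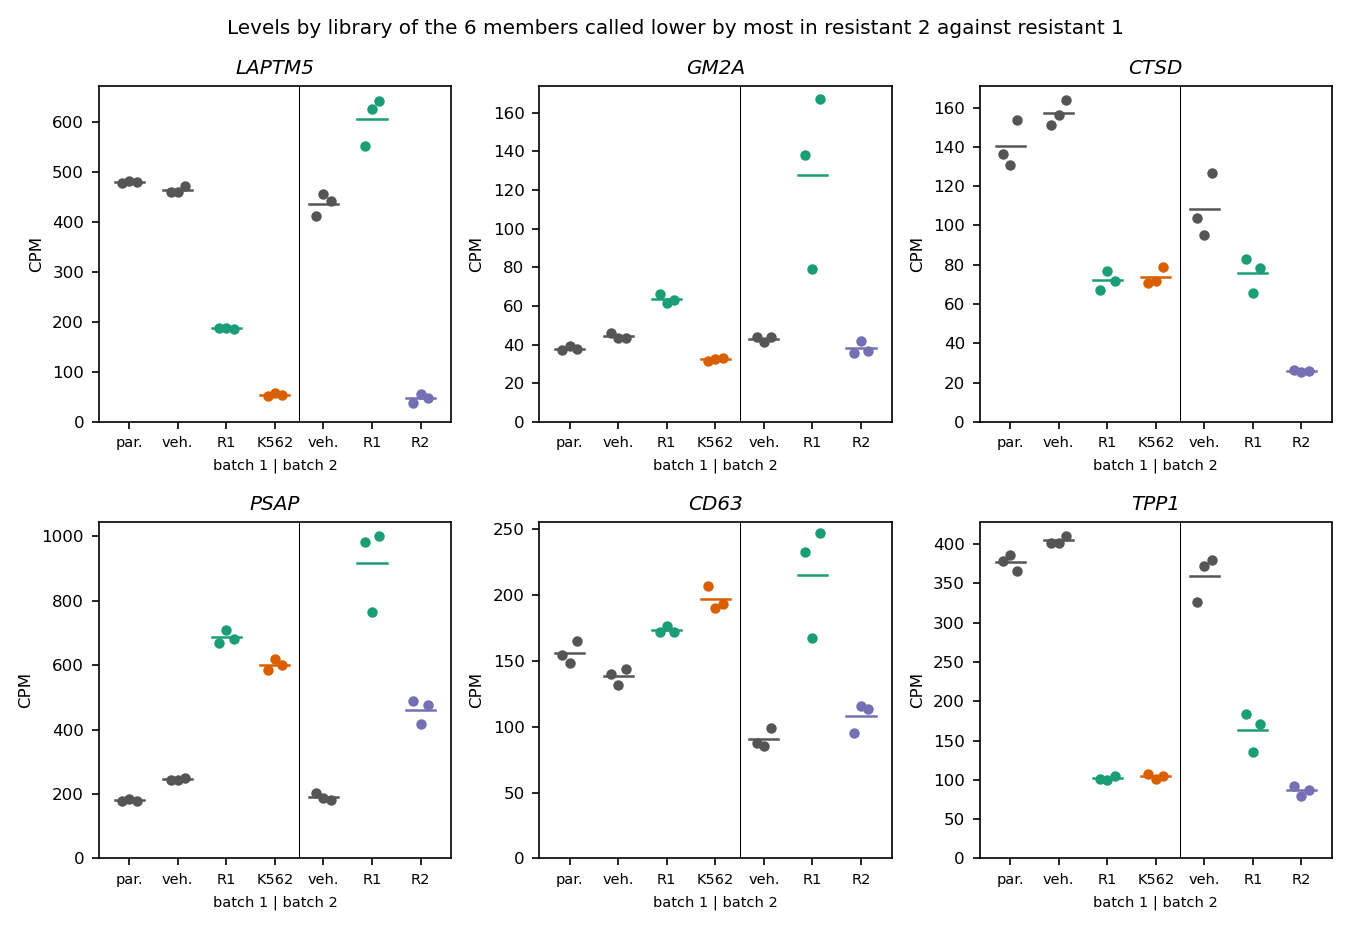
CPM by library (points; y axis linear from 0) and group means (lines) of the 6 members called lower by most in resistant 2 against resistant 1, with the 4 groups of batch 1 left and the 3 of batch 2 right of the vertical line (par., parental OCI-AML3; veh., vehicle; R1 and R2, libraries labelled resistant 1 and resistant 2). LAPTM5 was low in K562 and resistant 2, at means of 54.6 and 47.5 CPM. Its means were 188 CPM in resistant 1 of batch 1 and 607 CPM in that of batch 2. Parental and vehicle had means of 437 to 480 CPM.

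Other genes of the lysosomal pathway numbered 110. Of 106 tested, 27 were lower and 3 higher in resistant 2, with a median log2 fold change of -0.16 (25.5% and 2.83%, against 11.9% and 12.4% of all genes). The lower ones came to 9 of 28 other hydrolases, 3 of 23 other membrane proteins and transporters, 5 of 17 other proton pump subunits, 5 of 18 other MiT factors and genes of their mTORC1 control, and 5 of 20 genes of enzyme targeting. CTSS, a cathepsin of antigen-presenting cells, was lower at 18.9 ± 1.51 CPM (SD, n = 3) in resistant 2 against 59.97 ± 14.04 CPM in resistant 1, -1.67 ± 0.16 (SE, adjusted p = 7.70e-06) on the log2 scale. NPC2, which hands cholesterol to NPC1 inside the lysosome, was at 9.04 ± 0.645 CPM against 27.5 ± 7.63 CPM, lower, at -1.60 ± 0.19 (SE, adjusted p = 4.31e-05). LITAF, a late endosomal membrane protein, was lower, at -1.05 ± 0.16 (SE, adjusted p = 2.96e-04). HGSNAT, an acetyltransferase of heparan sulfate breakdown, and TPCN2, a cation channel, were higher by 0.57 ± 0.13 (SE, adjusted p = 0.00519) and 0.59 ± 0.16 (SE, adjusted p = 0.0186).

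Lists of cell type markers also differed between these groups. The summed level of 16 monocyte and macrophage markers was 195 to 225 CPM in resistant 1 and 168 to 187 CPM in resistant 2, with CD163 and MPEG1 at 0 counts in resistant 2 and MPEG1 also in resistant 1. Of its 13 genes tested, 3 were lower and 0 higher. The 18 erythroid markers summed to 2367 to 2891 CPM and 1500.3 to 2484 CPM, with 7 lower and 0 higher. The 10 megakaryocyte markers summed to 158 to 160.3 CPM and 109.9 to 125 CPM, with 1 of 4 tested lower. The 12 neutrophil and promyelocyte markers summed to no more than 3.72 CPM in either group, with 2 lower and 1 higher of 10 tested. The 8 osteoclast markers summed to 22.2 to 24.8 CPM and 21.7 to 25.0 CPM, with 1 lower and 1 higher of 5 tested. Over all genes tested 11.9% were lower and 12.4% higher. The part of these differences in the lower lysosome genes was not tested.

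Per kilobase of exon (union of GENCODE v44 exons, which may not be the authors' annotation), LAPTM5 led the members in the OCI-AML3 libraries and PSAP in those labelled resistant and in K562. LAPTM5 reached 149 CPM per kilobase in parental, 144 in vehicle of batch 1 and 135 in vehicle of batch 2. PSAP reached 220.3 in resistant 1 of batch 1, 193 in K562, 294 in resistant 1 of batch 2 and 148 in resistant 2. At the other end was LGMN, at most 0.155 CPM per kilobase in any group. ACP5 was at most 0.805, in resistant 1 of batch 2, where ARSA, TFEB, GAA and IDUA were lower. GAA, the glucosidase that digests glycogen, passed from 27.9 in vehicle to 0.602 in resistant 1 of batch 1, among the lowest members.

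**Figure D3:**
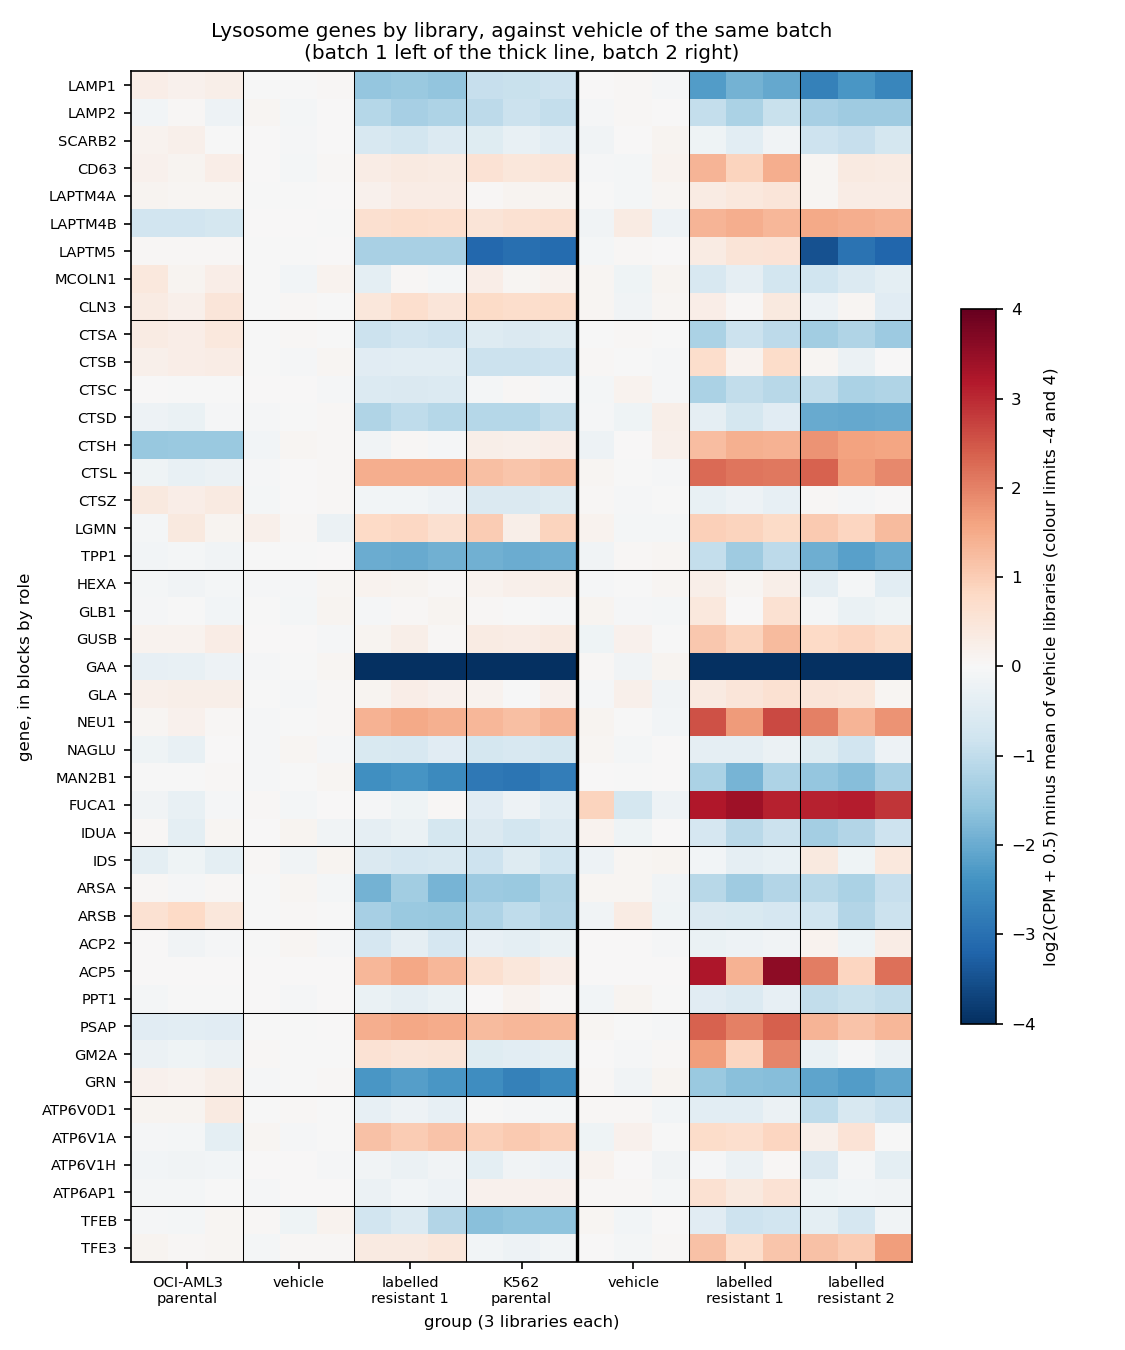
Log2 of CPM plus 0.5 in each of the 21 libraries (columns, by group) for the 43 members (rows, by role), less the mean of the 3 vehicle libraries of the same batch (red above, blue below, colours limited to -4 and 4). GAA is dark blue in K562 and in all groups labelled resistant. The row of LAPTM5 is blue in K562 and resistant 2, paler blue in resistant 1 of batch 1 and pale red in resistant 1 of batch 2.

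Against vehicle, most members differed in the libraries labelled resistant, in both directions, as most genes did. In batch 1 resistant 1 had 14 members higher and 22 lower of 42 tested (33.3% and 52.4%), against 44% of all 14505 genes higher and 42.1% lower. LGMN failed the low-count filter there, with no library above 0.537 CPM in those groups. In batch 2 resistant 1 had 19 members higher and 17 lower of 43 (44.2% and 39.5%), against 39.9% and 35.8% of 15218 genes. Resistant 2 had 11 higher and 20 lower of 43 (25.6% and 46.5%), against 40.2% and 35.9%. By library totals these last counts became 17 higher and 16 lower, while the calls over all genes moved from 6124 higher and 5462 lower to 7413 and 4261 and the median over all genes from 0.07 to 0.35. The comparisons of resistant 1 and resistant 2 in batch 2 share the vehicle libraries. Marker lists moved with them: of 13 monocyte markers tested 12 were lower and 1 higher, and all 18 erythroid markers were higher, in each of these 3 comparisons. The part of that in the lysosome genes was not tested.

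In the comparisons of resistant 1 with vehicle, which share no library between batches, 12 of 42 members tested in both were higher in both batches and 15 were lower in both (28.6% and 35.7%), against 33.9% and 32.7% of 14179 genes. GAA had the greatest fall. It was at 142, 145 and 153 CPM in vehicle and 2.84, 3.54 and 3.11 CPM in resistant 1 of batch 1, and at 64.5, 57.1 and 67.2 CPM and 2.95, 1.52 and 2.999 CPM in batch 2. Every library labelled resistant was far below every vehicle library, and resistant 2 stood at 2.01, 1.80 and 2.73 CPM. The log2 fold changes were -5.46 ± 0.08 (SE, adjusted p = 3.53e-28), -4.66 ± 0.23 (SE, adjusted p = 1.36e-10) and, for resistant 2, -4.85 ± 0.23 (SE, adjusted p = 9.14e-11). MAN2B1, the lysosomal alpha-mannosidase, was lower, at -2.38 ± 0.06 (SE, adjusted p = 5.86e-24) in batch 1 and -1.44 ± 0.15 (SE, adjusted p = 7.59e-07) in batch 2. GRN fell from 230.5 ± 6.72 CPM to 46.9 ± 2.55 CPM in batch 1 (SD, n = 3), at -2.22 ± 0.05 (SE, adjusted p = 1.46e-23) on the log2 scale, and in batch 2 it was at -1.64 in resistant 1 and -2.16 in resistant 2. TPP1 was lower, at -1.91 ± 0.05 (SE, adjusted p = 7.95e-24) in batch 1.

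The membrane glycoproteins fell in each of these comparisons too. LAMP1 was at 212, 212 and 221 CPM in vehicle and 73.97, 75.8 and 71.5 CPM in resistant 1 of batch 1, and at 221, 227 and 212 CPM in vehicle of batch 2. The groups did not overlap in either batch, and the log2 fold changes were -1.47 ± 0.05 (SE, adjusted p = 2.67e-20), -2.06 ± 0.13 (SE, adjusted p = 1.50e-09) and -2.55 ± 0.13 (SE, adjusted p = 1.65e-10) for resistant 1 in batches 1 and 2 and for resistant 2. LAMP2 was at 334, 294 and 314 CPM in vehicle and 143, 125 and 133 CPM in resistant 1 of batch 1, and at 545, 580.0 and 568 CPM in vehicle of batch 2. Its log2 fold changes were -1.16, -1.02 and -1.39, with adjusted p of at most 1.07e-06. All 3 sulfatases were lower in resistant 1 of batch 1, against 42.1% of all genes, from -1.71 for ARSA to -0.56 for IDS. In batch 2 IDS was not called in either group (-0.26 and 0.24).

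PSAP rose in each comparison. It was at 243, 242 and 249.8 CPM in vehicle and 668, 709 and 681 CPM in resistant 1 of batch 1, and at 202, 186 and 182 CPM in vehicle of batch 2. The libraries labelled resistant were all above vehicle, by 1.56 ± 0.04 (SE, adjusted p = 1.96e-22) in batch 1 and 2.27 ± 0.13 (SE, adjusted p = 5.36e-10) in batch 2, and resistant 2 by 1.27 ± 0.12 (SE, adjusted p = 2.76e-07). CTSL, a cysteine cathepsin, rose from 28.3 ± 1.10 CPM to 78.02 ± 0.448 CPM in batch 1 (SD, n = 3), by 1.54 ± 0.06 (SE, adjusted p = 1.19e-18), and by 2.21 ± 0.16 (SE, adjusted p = 7.42e-09) in batch 2. NEU1 rose by 1.53 ± 0.06 (SE, adjusted p = 3.11e-18) and 2.37 ± 0.23 (SE, adjusted p = 6.56e-07). ATP6V1A rose by 1.19 ± 0.07 (SE, adjusted p = 7.81e-14) in batch 1 and 0.75 ± 0.14 (SE, adjusted p = 1.98e-04) in batch 2, and stood at 0.26 in resistant 2, which was not called by TMM scaling and was called higher by library totals (0.54, adjusted p = 0.00173). ACP5 had 0 counts in all 6 vehicle libraries. Against a floor of 3 counts over the group, it was at least 14.5-fold higher in resistant 1 of batch 1, at least 132-fold in resistant 1 of batch 2 and at least 49.7-fold in resistant 2, bounds that cover counting error only. Its exons overlap ZNF627 on the opposite strand.

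FUCA1, the alpha-fucosidase, rose in batch 2 and not in batch 1. It was at 23.2, 21.4 and 22.8 CPM in vehicle and 21.8, 19.8 and 23.04 CPM in resistant 1 of batch 1, and at 5.68, 1.54 and 2.39 CPM in vehicle, 30.1, 34.3 and 27.4 CPM in resistant 1 and 27.3, 28.5 and 23.7 CPM in resistant 2 of batch 2. The vehicle libraries of batch 2 were the low ones, replicate 1 being the highest of them. The log2 fold change was 0.01 ± 0.08 (SE, adjusted p = 0.896) in batch 1 and 3.23 ± 0.36 (SE, adjusted p = 5.69e-06) in batch 2 for resistant 1, the second becoming 3.99 without vehicle replicate 1. For resistant 2 it was 3.02 ± 0.35 (SE, adjusted p = 9.32e-06), or 3.78 without that library. The fold change of resistant 1 differed between batches by 3.18 ± 0.42 (SE, adjusted p = 1.27e-04). CTSH stood at 59.2 ± 4.28 CPM in vehicle and 57.1 ± 3.58 CPM in resistant 1 of batch 1, and at 40.6 ± 5.65 CPM, 104 ± 7.43 CPM and 129.5 ± 11.2 CPM in vehicle, resistant 1 and resistant 2 of batch 2 (SD, n = 3 each). It rose in batch 2 by 1.36 ± 0.12 (SE, adjusted p = 1.14e-07) and 1.67 ± 0.12 (SE, adjusted p = 1.16e-08).

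The MiT factors moved in opposite directions in resistant 1 against vehicle. TFEB was at 8.22, 6.92 and 8.81 CPM in vehicle and 4.50, 5.31 and 3.24 CPM in resistant 1 of batch 1, and at 6.48, 5.62 and 6.14 CPM in vehicle of batch 2. It was lower in resistant 1, at -0.77 ± 0.15 (SE, adjusted p = 3.11e-05) and -0.73 ± 0.21 (SE, adjusted p = 0.00549), and in resistant 2 stood at -0.42 ± 0.21 (SE, adjusted p = 0.0776), which missed the threshold. TFE3 was at 40.6, 43.9 and 44.3 CPM and 55.5, 55.5 and 58.4 CPM in batch 1 and at 28.2, 26.6 and 29.1 CPM in vehicle of batch 2. It was higher by 0.47 ± 0.06 (SE, adjusted p = 5.53e-08), 1.02 ± 0.17 (SE, adjusted p = 5.51e-05) and 1.34 ± 0.17 (SE, adjusted p = 3.66e-06). MCOLN1 was at 9.96, 9.23 and 10.999 CPM in vehicle and 7.53, 10.5 and 9.46 CPM in resistant 1 of batch 1, which overlapped, and at 7.36, 6.18 and 7.57 CPM in vehicle of batch 2. It was not called in batch 1 (-0.06) and was lower in batch 2, at -0.63 ± 0.20 (SE, adjusted p = 0.00977) in resistant 1 and -0.63 ± 0.20 (SE, adjusted p = 0.00897) in resistant 2. Neither call was made by library totals (adjusted p = 0.0652 and 0.131).

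In batch 2, GM2A, CD63 and LAPTM5 were higher in resistant 1 than in vehicle and lower in resistant 2 than in resistant 1, as were PSAP, CTSB, GLB1, ATP6V1A and ATP6AP1. In vehicle of batch 2 GM2A was at 43.8, 41.3 and 43.996 CPM and CD63 at 87.6, 85.03 and 98.8 CPM. Resistant 1 was above vehicle in every library of both genes, by 1.57 ± 0.20 (SE, adjusted p = 8.02e-06) and 1.25 ± 0.14 (SE, adjusted p = 1.55e-06), while resistant 2 was at -0.18 and 0.26 against vehicle, neither called. LAPTM5 was at 412, 456 and 443 CPM in vehicle, below resistant 1 (resistant 1 over vehicle, 0.47 ± 0.13 SE, adjusted p = 0.00472) and above resistant 2 (resistant 2 over vehicle, -3.20 ± 0.14 SE, adjusted p = 4.18e-11). These comparisons share libraries, and their values stand side by side as a description. High values in the resistant 1 libraries alone would give both calls. The share of all genes with this pattern was not counted, so it is not shown to be particular to the members. By library totals CD63 was called higher in resistant 2 against vehicle (0.54, adjusted p = 0.00223).

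The next comparison was of vehicle with parental OCI-AML3, both of batch 1. Of 42 members tested, 7 were higher in vehicle and 12 lower (16.7% and 28.6%), against 18.7% and 18.3% of 14505 genes. CTSH rose by 1.49 ± 0.07 (SE, adjusted p = 4.57e-15), from 20.4, 20.7 and 20.8 CPM in parental to 54.3, 62.4 and 60.8 CPM in vehicle, with no overlap, and was the one member to differ by at least 1 on the log2 scale. LAPTM4B, PSAP and IDS rose by 0.71, 0.41 and 0.29 (adjusted p of at most 0.00389). ARSB, CTSA, CLN3 and CTSZ fell by 0.67, 0.38, 0.37 and 0.37 on the log2 scale (adjusted p of at most 0.00107). LAMP1 was at 257, 242 and 254 CPM in parental, above vehicle (vehicle over parental, -0.25 ± 0.05 SE, adjusted p = 1.17e-04), and LAMP2 at 290.5, 321 and 271 CPM, which was not called (0.07). MCOLN1 at 13.6, 10.9 and 12.3 CPM was called higher in parental than in vehicle (vehicle over parental, -0.32 ± 0.12 SE, adjusted p = 0.0323) although the libraries overlapped, a call not made by DESeq2 (adjusted p = 0.0880). TFEB at 7.62, 7.58 and 8.45 CPM and TFE3 at 46.1, 44.1 and 45.4 CPM were not called (-0.02 and -0.10). Marker lists differed between these groups too. Monocyte markers summed to 1622 to 1727 CPM in parental and 1359 to 1378 CPM in vehicle, with 7 higher and 2 lower of 13. Neutrophil markers summed to 1774 to 2008 CPM and 2240 to 2392 CPM, with 5 higher and 1 lower of 8, and osteoclast markers to 58.6 to 66.3 CPM and 329 to 350.1 CPM, with 4 higher and 1 lower of 5. Erythroid markers summed to 269 to 322 CPM and 135 to 142 CPM, with 2 higher and 1 lower of 18. The part of these lists in the lysosome genes was not tested.

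K562 differed from parental OCI-AML3 in 33 of 41 members tested, 11 higher and 22 lower (26.8% and 53.7%), against 42.6% and 42.5% of 13883 genes. LGMN and ACP5 failed the low-count filter. Of the markers tested, 12 of 13 monocyte, 8 of 8 neutrophil and 4 of 4 osteoclast markers were lower and 18 of 18 erythroid markers higher, and their part in the members' differences was not tested. GAA was at 117, 119.8 and 126 CPM in parental and 1.17, 1.55 and 1.37 CPM in K562, 87.98-fold lower, at -6.46 ± 0.10 (SE, adjusted p = 1.65e-22). LAPTM5 was at 479, 482 and 479.7 CPM and 52.2, 57.5 and 53.97 CPM, also far apart (-3.14 ± 0.05 SE, adjusted p = 6.20e-22). MAN2B1 and GRN were lower, at -2.88 and -2.77, and CTSH, PSAP, CTSL and LAPTM4B higher by 1.76, 1.74, 1.43 and 1.33, with adjusted p of at most 3.28e-14. LAMP1 in K562 was at 112, 115 and 121 CPM and LAMP2 at 152, 174 and 162 CPM, both below parental (-1.11 ± 0.05 SE, adjusted p = 2.47e-14, and -0.85 ± 0.06 SE, adjusted p = 1.69e-10). MCOLN1 was at 12.1, 10.7 and 11.02 CPM and not called (-0.12). TFEB was at 2.13, 2.29 and 2.27 CPM and TFE3 at 39.4, 36.9 and 39.9 CPM, both lower (-1.81 ± 0.16 SE, adjusted p = 7.12e-10, and -0.22 ± 0.07 SE, adjusted p = 0.00410). Of 31 members called both here and in resistant 1 against vehicle of batch 1, comparisons that share no library, 28 had the same direction (90.3%), against 97.3% of the 10809 genes called in both. GM2A, ATP6AP1 and TFE3 had opposite directions.

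Resistant 1 of batch 1 was also set against K562, which it resembled. Of 42 members tested 17 were higher in resistant 1 and 15 lower (40.5% and 35.7%), against 31.3% and 28.5% of 13006 genes. All 5 monocyte markers tested were higher in resistant 1, and of 18 erythroid markers 9 were higher and 6 lower. Their part in the members' differences was not tested. The median size of the difference, whatever its sign, was 0.27 on the log2 scale, and 3 members reached 1: LAPTM5 (1.80 ± 0.05 SE, adjusted p = 1.04e-17), ACP5 (2.16 ± 0.46 SE, adjusted p = 3.78e-04) and GAA, all 3 higher in resistant 1 (GAA with adjusted p = 3.77e-05). GM2A, TFE3 and CTSZ were higher by 0.98, 0.56 and 0.44, and TFEB was 1.995-fold higher (adjusted p = 1.31e-04). LAMP1, CTSC, PPT1 and ATP6AP1 were lower, from -0.64 ± 0.05 (SE, adjusted p = 4.37e-10) for LAMP1 to -0.35 ± 0.05 (SE, adjusted p = 4.39e-06) for ATP6AP1. LAMP2 was lower, at -0.27 ± 0.05 (SE, adjusted p = 2.45e-04) and MCOLN1 lower at -0.29 ± 0.12 (SE, adjusted p = 0.0387), the second not called by DESeq2 (adjusted p = 0.0716) or by library totals (0.111).

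The fold change of resistant 1 over vehicle was tested for a difference between batches. It was higher in batch 2 for 19 of 43 members and lower for 3 (44.2% and 6.98%), against 15% and 18.2% of 15209 genes. Of the marker lists, monocyte markers were 5 higher and 0 lower of 13 in the same test (median 1.29), osteoclast markers 4 higher and 0 lower of 6 (median 1.85) and erythroid markers 0 higher and 1 lower of 18 (median -0.70). Their part in the members' difference was not tested. LAPTM5, CTSB and ATP6AP1 were called in opposite directions in the batches. Of the 30 members called in both batches 27 had the same direction (90%), against 96.1% of the 9837 genes called in both. LAPTM5 fell in batch 1, to 188, 188 and 187 CPM from 460.4, 460.0 and 473 CPM in vehicle, at -1.23 ± 0.04 (SE, adjusted p = 3.16e-20), and was higher than vehicle in batch 2, a difference of 1.69 ± 0.10 (SE, adjusted p = 5.81e-09). CTSB went from -0.36 to 0.55 (difference 0.89 ± 0.16 SE, adjusted p = 4.00e-04) and ATP6AP1 from -0.12 to 0.54 (0.64 ± 0.11 SE, adjusted p = 2.54e-04). The call for ATP6AP1 in batch 1 rested on an adjusted p of 0.0498 and ended by library totals (0.255) and with no low-count filter (0.0720). The members lower in batch 2 were CTSC, LAMP1 and ATP6V1A. Whether the batches differ in culture or in sequencing alone is not stated, and these cannot be told apart.

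**Figure D4:**
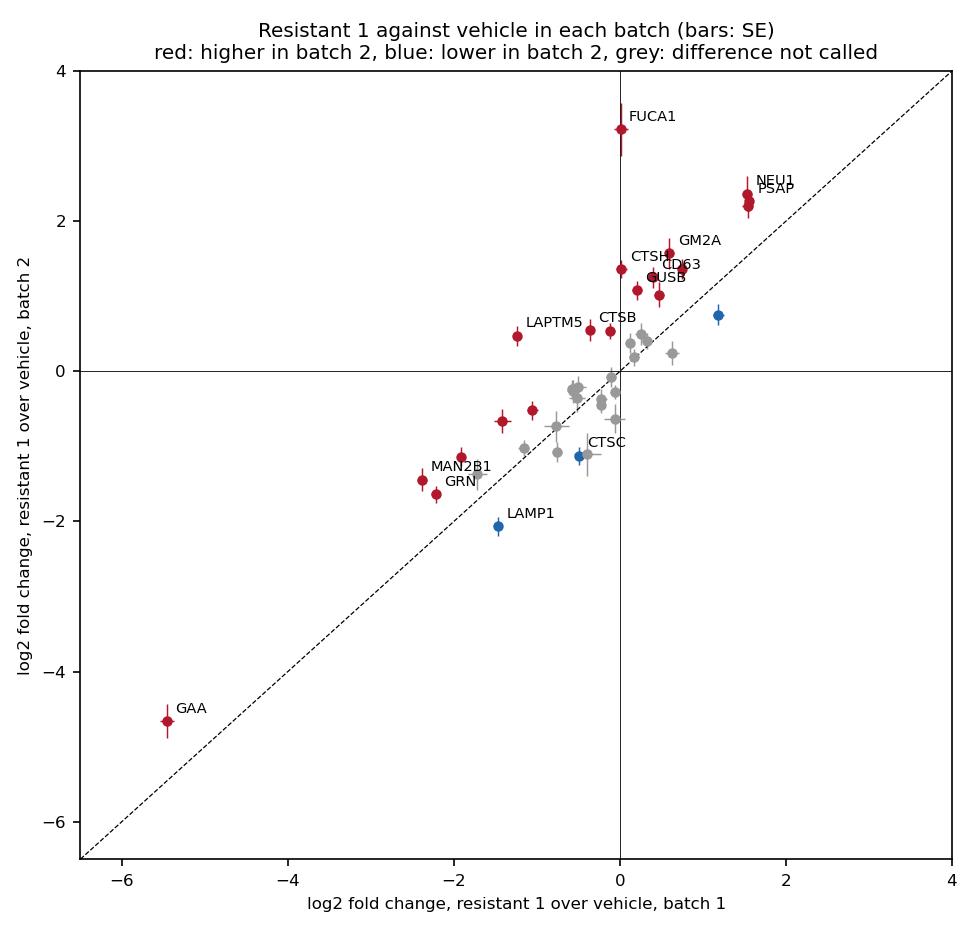
Log2 fold change of resistant 1 over vehicle in batch 1 (x axis) and batch 2 (y axis) for 41 members (points; bars are standard errors; ACP5 with 0 counts in vehicle and LGMN, not tested in batch 1, are left out), with a dashed line of equal values. FUCA1, CTSH and LAPTM5 lie well above the line, while GAA is far down on both axes at -5.46 and -4.66.

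Other pathway genes named by the same rule included some that were near 0 CPM on one side of the comparison of vehicle with the libraries labelled resistant. Of 106 tested, 32 were higher and 63 lower in resistant 1 of batch 1, 30 and 52 in batch 2, and 18 and 58 in resistant 2. The shares were 30.2% and 59.4%, 28.3% and 49.1%, and 17% and 54.7%, against 44% and 42.1%, 39.9% and 35.8%, and 40.2% and 35.9% of all genes. LIPA, the acid lipase that frees cholesterol from its esters in the lysosome, was at 0.101 ± 0.0879 CPM in resistant 1 and 77.8 ± 1.14 CPM in vehicle of batch 1 (SD, n = 3), and at 0.354 ± 0.0959 CPM and 91.5 ± 3.25 CPM in batch 2. CTSO, a cysteine cathepsin, was at 0.0603 ± 0.0341 CPM and 16.4 ± 4.32 CPM in batch 2. DNASE2, the acid DNase, was at 29.1 ± 3.20 CPM and 0.0700 ± 0.0610 CPM in batch 1. SORT1, the sorting receptor that also takes up progranulin, was at 231 ± 6.27 CPM and 6.10 ± 0.593 CPM in batch 1. MITF, another MiT factor, was at 37.9 ± 1.25 CPM and 4.26 ± 0.285 CPM in batch 1, higher by 3.23 ± 0.10 (SE, adjusted p = 1.13e-21). In K562 against parental, LIPA was lower (0.158 ± 0.0897 CPM and 75.3 ± 4.77 CPM) and SORT1 higher (316 ± 15.2 CPM and 3.23 ± 0.986 CPM).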

How the data were processed

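Gene counts of 21 libraries were deposited by the authors as raw counts per gene symbol, 1 table per batch. Per the labels' protocols, RNA from 2 cell lines was made into strand-specific mRNA libraries and sequenced as paired reads. The labels call the tables STAR gene counts, and the submitters' processing notes list the build hg38 and DESeq2 1.22.1, with no role. Annotation and strand handling in counting are not stated, so reads from overlapping or antisense genes may not be told apart.

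Counts were fitted here with edgeR 4.0.16 in R 4.3.3: TMM scaling, filterByExpr, robust quasi-likelihood models with a mean per group, two-sided F tests and Benjamini-Hochberg adjustment over all genes tested, called under 0.05. The 3 OCI-AML3 groups of a batch were fitted together, and K562 with the 1 group it was compared with. The batch difference is an interaction term. DESeq2 1.42.0, other scalings, no filter, left-out libraries and a replicate block were alternatives. Replicate numbers came from the titles, except for 1 vehicle library of batch 2 with an unclear title. Its number, 1, came from its library name. Members, lists and tests were chosen with earlier results of these data known. Full values are given for up to 6 called members each way in resistant 2 against resistant 1 and up to 4 in the other comparisons, with at least 5 CPM in the higher group, for LAMP1, LAMP2, MCOLN1, TFEB and TFE3, and for up to 3 other pathway genes each way, of which some are not printed. Replicates of a group differed by more than sampling noise (chi-square per degree of freedom of 1.81 to 7.18 in batch 1 and 20.8 to 84.5 in batch 2). Same-numbered libraries deviated together in resistant 2 against resistant 1 (correlations of 0.157 to 0.391) and in resistant 1 against vehicle of batch 2 (0.214 to 0.267). All were over 0.1, a pairing taken from the data. Different-numbered libraries reached 0.322 in the first comparison, where 4 of 6 libraries matched best with their own number. In the second they reached 0.0593, and 6 of 6 matched best with their own. The fit of resistant 2 against resistant 1 was tested on simulated data, where it recovered 89% of changes of 1 and 100% of changes of 2 on the log2 scale. The simulation gave all genes the same spread and made the libraries independent, unlike these data. Smaller changes were not simulated, and the median size among the members was 0.36, so these rates do not cover most of the calls.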

Additional observations from a re-analysis of the deposited data

Results flagged for a closer look

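The fold change of resistant 1 over vehicle differed between the 2 batches, by the interaction term of edgeR, for 22 of 43 members (51.2%) and 33.2% of all 15209 genes, and the values of 7 of them are given as batch 2 minus batch 1 on the log2 scale. FUCA1 differed by 3.18 ± 0.42 (SE, adjusted p = 1.27e-04), LAPTM5 by 1.69 ± 0.10 (SE, adjusted p = 5.81e-09) and CTSH by 1.32 ± 0.14 (SE, adjusted p = 1.91e-06). GM2A differed by 0.95 ± 0.27 (SE, adjusted p = 0.0148), a call that ended without resistant 1 replicate 1 of batch 2 (adjusted p = 0.0513) and with no low-count filter (0.0756). The differences the other way were -0.65 ± 0.11 (SE, adjusted p = 2.36e-04) for CTSC, -0.61 ± 0.11 (SE, adjusted p = 4.52e-04) for LAMP1 and -0.45 ± 0.12 (SE, adjusted p = 0.00776) for ATP6V1A, the last at an adjusted p of 0.0594 by library totals. In vehicle FUCA1 was at 22.5 ± 0.979 CPM in batch 1 and 3.20 ± 2.19 CPM in batch 2 (SD, n = 3), and in resistant 1 at 21.5 ± 1.63 CPM and 30.6 ± 3.45 CPM, so that the vehicle libraries differed by more than those labelled resistant.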

How the results depend on the processing

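For the member counts, DESeq2 and RLE size factors stayed within 1.5 times of those given. The members higher in resistant 2 than resistant 1, 2 in number, came to 1 with no low-count filter, 1 in a fit of the 6 compared libraries, and 0 to 4 when single libraries were left out (0 without resistant 1 replicate 3, resistant 2 replicate 1 or resistant 2 replicate 3, and 4 without resistant 2 replicate 2). Those lower came to 12 to 21. By library totals the members higher in resistant 2 than vehicle came to 17. In the batch difference the members lower in batch 2 came to 3 to 6 when single libraries were left out (6 without resistant 1 replicate 2 or vehicle replicate 2 of batch 2, and 5 without resistant 1 replicate 3 of batch 2). Library totals moved the median log2 fold change of all genes to 0.26 in resistant 1 and 0.35 in resistant 2 against vehicle of batch 2, and to 0.13 in the batch difference.

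With the replicate number as a block, the members called in resistant 2 against resistant 1 came to 19 lower and 3 higher, adding NEU1, ACP5 and CTSH, and in resistant 1 against vehicle of batch 2 to 18 lower, adding SCARB2 (adjusted p = 0.0499), and 19 higher. In the comparisons where not all same-numbered correlations were over 0.1, the block gave counts within 1.5 times. Among them was resistant 2 against vehicle, at 0.0843 to 0.211, where 6 of 6 libraries still matched best with their own number. The batch difference was not fitted with a block. Among 4795 values of single members under the alternatives, 166 lost a call, 74 gained one, 89 that were never called changed sign and 4466 kept direction and call. Depth limits LGMN, under 1 CPM throughout, and ACP5.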
